A study of Saccharomyces cerevisiae with 12 samples.

Results

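The 10 genes described here serve calcium influx and calcineurin signalling in budding yeast. They were chosen by name, as MID1, CCH1, CNA1, CMP2, CNB1, CRZ1, RCN1, RCN2, PMC1 and CMK2. All 10 were found among the 7126 genes listed in each library, and all 10 passed the filter on low values (a mean of at least 1 FPKM over the 12 libraries). RNA was sequenced from MATa cells (strain MP 384) and MATα-playing-a cells (strain LBHY29), each without and with the mating pheromone α-factor. There were 3 biological replicates in each of the 4 groups. All cultures grew to log phase in YPD with 0.1% BSA at 30 °C. Part of each culture was harvested as the unstimulated sample, and the remainder received 10 nM α-factor and was harvested after 2 h. The stimulated cells were therefore also 2 h older in culture, and time and pheromone cannot be told apart. The labels give no genotype beyond strain name and mating type; MATα-playing-a cells are known as α cells engineered to take on a-cell traits.

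When a yeast cell senses pheromone, calcium enters through a channel at the plasma membrane. Calcium bound to calmodulin activates calcineurin, a phosphatase made of a catalytic A subunit and a regulatory B subunit. Calcineurin dephosphorylates the transcription factor Crz1, which then enters the nucleus and activates genes that move calcium out of the cytosol, damp calcineurin itself and build cell wall. The pathway is known for keeping cells alive during long exposure to pheromone.

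The labels were checked against mating genes. The pheromone-induced gene FUS1 was at 156 to 196 FPKM in unstimulated and 3017 to 3219 in stimulated MATa libraries, and at 99.7 to 130 and 2993 to 3058 FPKM in those of MATα-playing-a cells. The a-cell receptor gene STE2 was read in all 12 libraries, at 3254 to 8483 FPKM in MATa and 512 to 1937 in MATα-playing-a cells. Of the other a-cell genes checked, BAR1 was listed at 0 in all 6 MATa libraries and AGA2 at 0 in 4 of the 6 MATα-playing-a libraries. BAR1 was read at 27.8 to 54.7 FPKM in MATα-playing-a libraries, and AGA2 at 997 to 10770 in MATa libraries. The α-cell genes STE3, MF(ALPHA)1 and MF(ALPHA)2 were listed at 0 in all 6 MATα-playing-a libraries, whereas SAG1 stood at 1215 to 5595 FPKM there and at 98.4 to 124 in MATa libraries. In MATa libraries STE3 was read at 8.40 to 25.55 FPKM and MF(ALPHA)2 at 67.95 to 109. MF(ALPHA)1 was at 3.635 to 8.52 FPKM in unstimulated MATa libraries and at 0 in stimulated ones. The a-cell genes MFA2 and STE6 were read at 116 to 221 and 22.7 to 32.7 FPKM in MATα-playing-a cells, against 7282 to 21471 and 481 to 655 in MATa cells. MFA1, another a-cell gene, was at 2909 to 5024 FPKM in MATα-playing-a and 5406 to 32534 in MATa libraries. FPKM summed over all genes was 5332586 to 5516177 in stimulated and 5989653 to 6666550 in unstimulated libraries. Over the 6608 genes tested, the log2 change with α-factor had a median of -0.09 in MATa and of -0.10 in MATα-playing-a cells.

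Of the 10 genes, 6 rose with α-factor in both strains: the calcineurin subunit genes CMP2 and CNB1, the calcineurin regulator genes RCN1 and RCN2, the vacuolar calcium pump gene PMC1 and the kinase gene CMK2. MID1, a subunit gene of the influx channel, fell in both strains. CCH1 and CRZ1 fell in MATα-playing-a cells, and CNA1 passed in neither strain. In MATa cells 6 of 10 were thus called higher and 1 lower, where 28.5% and 38.1% of all tested genes were called higher and lower (limma, Benjamini-Hochberg adjusted p below 0.05). In MATα-playing-a cells 6 were called higher and 3 lower, beside 29.8% and 39.1% of all genes. The 5 genes CMP2, RCN1, RCN2, PMC1 and CMK2 rose by 2-fold or more in each strain, against 9.78% and 11.2% of all genes. The 10 genes were chosen with earlier results of these data known, so these counts are descriptions, not independent tests. The median log2 change over the 10 genes was 0.89 in MATa and 0.90 in MATα-playing-a cells. In bulk RNA such as this, fewer cells of a kind and less RNA per cell cannot be told apart.

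**Figure D1:**
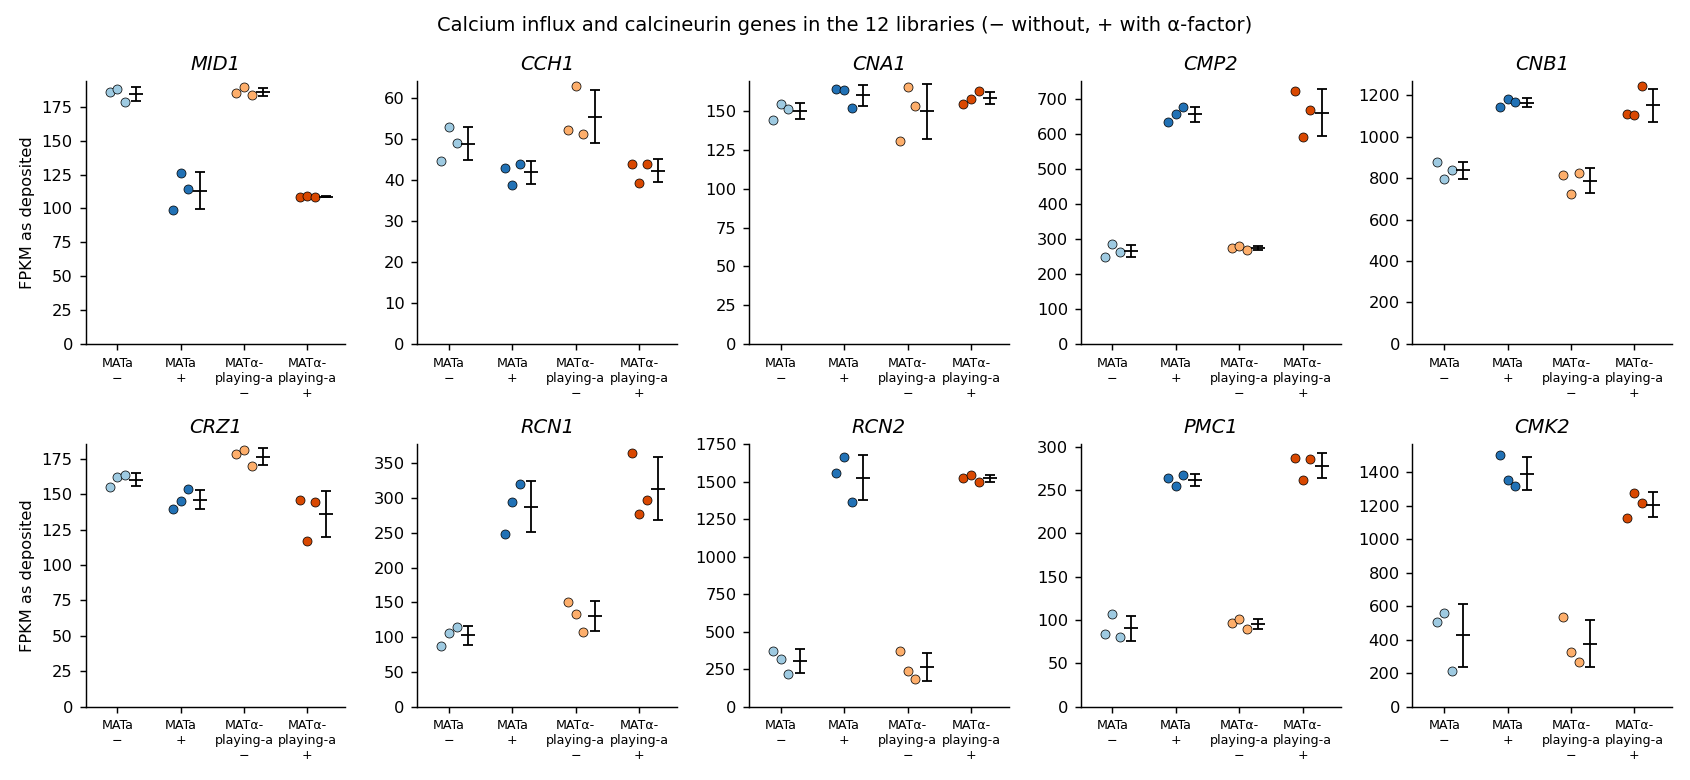
FPKM of each of the 10 genes (y axis, from 0, own scale per gene) in the 3 libraries of each group (x axis; minus, without and plus, with α-factor). Points are libraries and bars the mean ± SD; for RCN2 the stimulated libraries lie between 1363 and 1661 FPKM and the unstimulated ones between 187 and 374.

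MID1 (YNL291C, chromosome XIV, 84169 to 85815), a regulatory subunit of the high-affinity plasma membrane channel named for mating-induced death, was at 186, 188 and 178.5 FPKM in unstimulated and 98.9, 126 and 114.5 FPKM in stimulated MATa libraries. In MATα-playing-a cells it was at 185, 189 and 183.5 FPKM without and 108.5, 108.8 and 108.4 with α-factor. Stimulated and unstimulated values did not overlap in either strain. The log2 change was -0.705 ± 0.080 (SE) in MATa (limma adjusted p = 1.2e-05) and -0.77 ± 0.08 in MATα-playing-a cells (adjusted p = 5.7e-06).

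CCH1 (YGR217W, chromosome VII, 924696 to 930815), the pore-forming subunit, had the lowest level of the 10 genes in every group. Its values were 44.7, 52.9 and 49.0 FPKM in unstimulated and 43.0, 38.7 and 43.8 in stimulated MATa libraries. In MATα-playing-a libraries they were 52.3, 62.9 and 51.2 without and 43.85, 39.2 and 43.87 with α-factor. The log2 change in MATα-playing-a cells was -0.38 ± 0.11 (limma adjusted p = 0.00891). In MATa cells it was -0.22 (95% interval -0.46 to 0.02; adjusted p = 0.0987), and with quantile normalisation it was -0.31 and passed (adjusted p = 0.0312). MID1 over CCH1 came to 4.16, 3.56 and 3.65 in unstimulated and 2.30, 3.26 and 2.61 in stimulated MATa libraries, so that the values of the groups did not overlap.

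The catalytic subunit of calcineurin is made from either of 2 genes, and only CMP2 passed the test. CNA1 (YLR433C, chromosome XII, 1004347 to 1006008) was at 144.5, 154.6 and 151.2 FPKM in unstimulated and 164, 164 and 152 in stimulated MATa libraries. In MATα-playing-a libraries CNA1 was at 131, 166 and 153 FPKM without and 155, 158 and 163 with α-factor. The groups overlapped in both strains; the log2 changes were 0.09 in each (95% interval -0.09 to 0.27 in both; limma adjusted p = 0.344 and 0.364).

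CMP2 (YML057W, chromosome XIII, 160180 to 161994), the paralog, was at 249, 284 and 263 FPKM in unstimulated and 632.5, 656.6 and 676.7 in stimulated MATa libraries. In MATα-playing-a cells it was at 275, 280 and 268 FPKM without and 723.5, 591.9 and 667 with α-factor. Each stimulated library lay above each unstimulated one, and CMP2 rose 2.47-fold in MATa (log2 change 1.30 ± 0.08, adjusted p = 7.2e-08) and 2.40-fold in MATα-playing-a cells (1.26 ± 0.08, adjusted p = 9.1e-08). CMP2 overlaps the gene YML057C-A, which was at 122 to 144 FPKM in unstimulated and 276 to 361 FPKM in stimulated MATa libraries. No source used here says whether reads kept their strand, and those of this pair cannot be told apart where they overlap. The coding sequences of CNA1 and CMP2 share no identical run longer than 17 bases in the R64 reference.

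The regulatory B subunit gene CNB1 (YKL190W, chromosome XI, 82947 to 83550) was at 876, 795 and 839 FPKM in unstimulated and 1141, 1182 and 1169 FPKM in stimulated MATa libraries. In MATα-playing-a libraries it was at 817, 721 and 827 FPKM without and 1109, 1103 and 1242 with α-factor. The groups did not overlap in either strain, with rises of 1.39-fold (log2 change 0.48 ± 0.07, limma adjusted p = 1.0e-04) and 1.46-fold (0.55 ± 0.07, adjusted p = 3.3e-05).

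Because CMP2 rose and CNA1 did not pass, the ratio of their FPKM within a library changed. CMP2 over CNA1 was 1.72, 1.84 and 1.74 in unstimulated and 3.85, 4.01 and 4.44 in stimulated MATa libraries. In MATα-playing-a libraries it was 2.10, 1.69 and 1.75 without and 4.67, 3.74 and 4.10 with α-factor. These ratios do not depend on how libraries are scaled against each other. CNB1 over the sum of CNA1 and CMP2 stood at 1.81 to 2.23 in unstimulated and 1.41 to 1.44 in stimulated MATa libraries, and at 1.62 to 2.01 and 1.26 to 1.5 in those of MATα-playing-a cells. CNB1 has 2 coding exons in R64, of 528 bases together against 604 bases of the gene, and which length entered its FPKM is not given in the sources used here; this bears on the size of the ratio, not on its change. Each of these ratios separated stimulated from unstimulated libraries in both strains, with an exact 2-sided permutation p = 0.1, the smallest that 3 against 3 libraries allow.

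**Figure D2:**
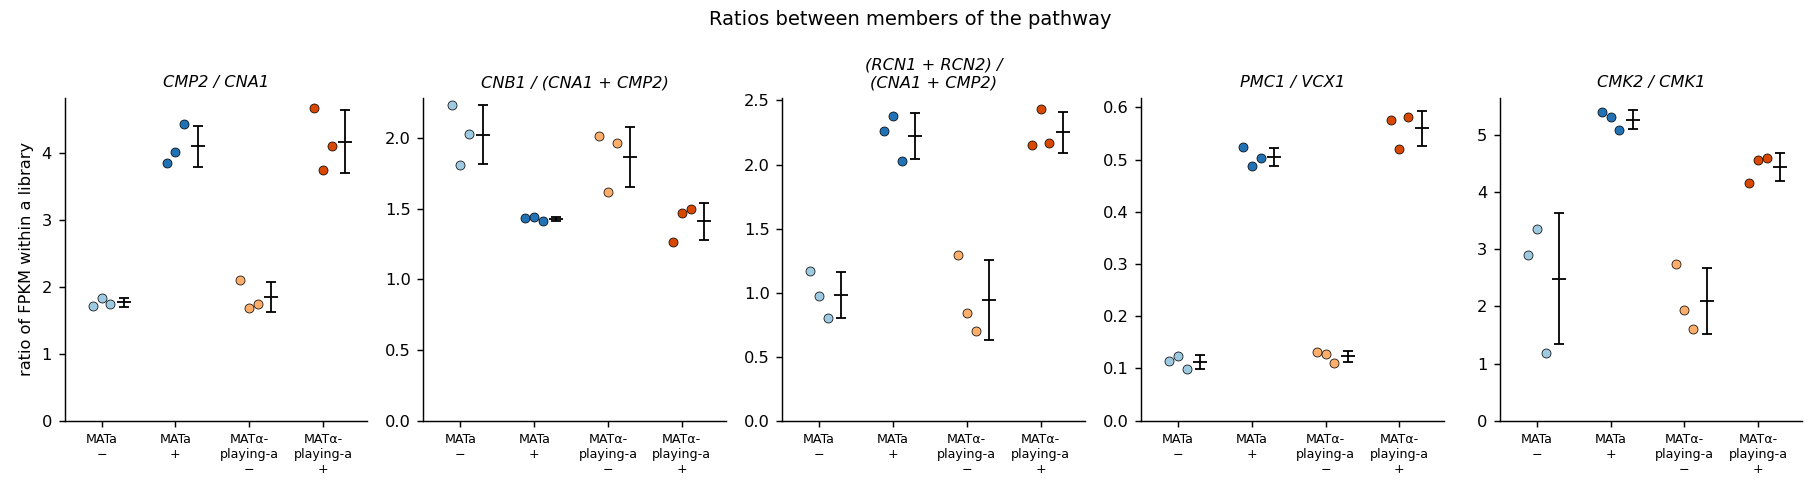
Ratios of FPKM within a library (y axis, from 0, own scale per panel) for pairs or sums of genes, in the 3 libraries of each group (minus, without and plus, with α-factor); bars are the mean ± SD. CMP2 over CNA1 was 4.10 on average in stimulated and 1.77 in unstimulated MATa libraries, while CNB1 over both catalytic subunit genes was 1.43 and 2.02.

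CRZ1 (YNL027W, chromosome XIV, 579580 to 581616) codes for the transcription factor that calcineurin activates. It was not called higher in either strain. It was at 155, 162 and 164 FPKM in unstimulated and 140, 145 and 153 in stimulated MATa libraries (log2 change -0.13, 95% interval -0.32 to 0.05; limma adjusted p = 0.181). In MATα-playing-a libraries it was at 178, 181 and 170 FPKM without and 146, 117 and 144 with α-factor, a log2 change of -0.38 ± 0.08 (adjusted p = 0.00173). The stimulated values lay below the unstimulated ones in both strains. The difference between the strains in this change was -0.25 (95% interval -0.51 to 0.01; adjusted p = 0.434), so that a different response of CRZ1 in the strains was not shown. Phosphorylation and location of the protein, through which calcineurin acts on Crz1, are not seen in RNA levels.

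The regulators of calcineurin rose in both strains, RCN2 most of the 10 genes. RCN1 (YKL159C, chromosome XI, 153816 to 154451) codes for a calcipressin, a protein that binds and regulates calcineurin. It was at 87.6, 106 and 114 FPKM in unstimulated and 248, 294.5 and 320 in stimulated MATa libraries. In MATα-playing-a libraries it was at 151, 133 and 107 FPKM without and 364, 278 and 298 with α-factor. The groups did not overlap, with rises of 2.78-fold (log2 change 1.48 ± 0.15, limma adjusted p = 6.1e-06) and 2.40-fold (1.26 ± 0.15, adjusted p = 2.1e-05).

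RCN2 (YOR220W, chromosome XV, 755328 to 756125), the other calcipressin gene, was at 374, 319 and 219 FPKM in unstimulated and 1555, 1661 and 1363 in stimulated MATa libraries. In MATα-playing-a cells it was at 371, 240 and 187 FPKM without and 1527, 1542 and 1499 with α-factor. The lowest stimulated value was above the highest unstimulated one in each strain. RCN2 rose 5.11-fold in MATa (log2 change 2.35 ± 0.23, adjusted p = 3.8e-06) and 5.94-fold in MATα-playing-a cells (2.57 ± 0.23, adjusted p = 1.9e-06). The sum of RCN1 and RCN2 over that of CNA1 and CMP2 stood at 0.805 to 1.17 in unstimulated and 2.03 to 2.38 in stimulated MATa libraries. In MATα-playing-a libraries the range was 0.698 to 1.29 without and 2.15 to 2.43 with α-factor. The groups did not overlap in either strain (exact 2-sided permutation p = 0.1, the smallest possible). RCN2 over RCN1 overlapped in MATa cells, at 1.92 to 4.27 without and 4.26 to 6.27 with α-factor (exact p = 0.2). In MATα-playing-a cells it was at 1.75 to 2.46 and 4.19 to 5.56 (exact p = 0.1).

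Among the effectors of the pathway, PMC1 (YGL006W, chromosome VII, 485921 to 489442), the calcium pump of the vacuole, was at 83.4, 106 and 80.9 FPKM in unstimulated and 264, 254 and 267.5 FPKM in stimulated MATa libraries. In MATα-playing-a libraries PMC1 was at 96.9, 101 and 89.3 FPKM without and 287.5, 262 and 286 with α-factor. Its rise was alike in size in both strains, 2.90-fold (log2 change 1.54 ± 0.10, limma adjusted p = 1.4e-07) and 2.89-fold (1.53 ± 0.10, adjusted p = 1.4e-07), and the difference of the responses was -0.01 (95% interval -0.31 to 0.30).

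CMK2 (YOL016C, chromosome XV, 294777 to 296120) codes for a calmodulin-dependent protein kinase. It was at 509, 562 and 211 FPKM in unstimulated and 1507, 1353 and 1319 in stimulated MATa libraries. In MATα-playing-a cells it was at 536, 324 and 268 FPKM without and 1129, 1276 and 1218 with α-factor. The groups did not overlap, and CMK2 rose 3.54-fold (log2 change 1.82 ± 0.33, adjusted p = 4.7e-04) and 3.34-fold (1.74 ± 0.33, adjusted p = 6.2e-04).

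CMK2 and RCN2 also varied most among unstimulated replicates of the 10 genes. The SD of log2(FPKM + 1) was 0.78 for CMK2 and 0.39 for RCN2 in unstimulated MATa libraries, larger than in 98.2% and 95.1% of genes whose mean reached 10 FPKM. In unstimulated MATα-playing-a libraries it was 0.51 and 0.50, larger than in 97.7% and 97.5% of genes. In both strains replicate 3 held the lowest unstimulated value of both genes, as it did for MID1 and PMC1. With α-factor the SDs were 0.10 and 0.14 in MATa and 0.09 and 0.02 in MATα-playing-a cells.

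**Figure D3:**
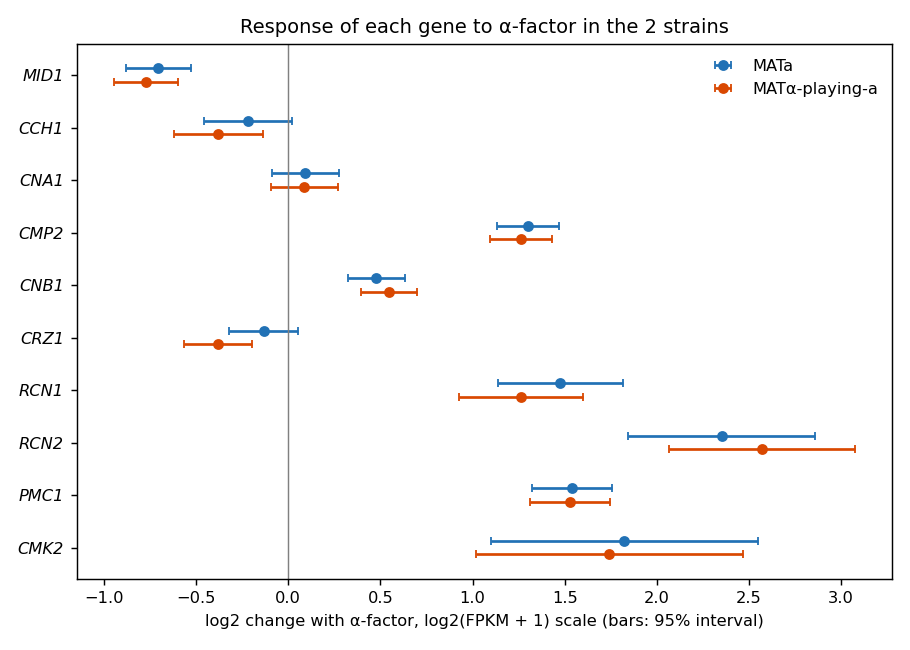
Log2 change with α-factor (x axis, log2(FPKM + 1) scale) of each gene in MATa (blue) and MATα-playing-a cells (orange); bars are 95% intervals of the limma fit and the vertical line marks no change. The 6 genes that rose run from 0.48 (CNB1) to 2.35 (RCN2) in MATa cells, and MID1 is lowest in both strains.

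The sequences before RCN1, RCN2, PMC1 and CMK2 are shown because RCN1, PMC1 and CMK2 are known targets of Crz1 and these 4 genes had the highest rises of the 10 in MATa cells. CMP2, which rose as well, is shown beside them. Crz1 is known to bind a calcineurin-dependent response element with a core of GNGGC. The window ran from 300 to 51 bases before the start codon, 250 bases, read 5′ to 3′ on the gene's strand from the R64 RefSeq genome. The windows lie at chrXI:154502-154751 (RCN1, minus strand), chrXV:755028-755277 (RCN2, plus strand), chrXV:296171-296420 (CMK2, minus strand), chrVII:485621-485870 (PMC1, plus strand) and chrXIII:159880-160129 (CMP2, plus strand). Capitals mark matches on either strand to GNGGCT, to GNGGCGCA or to TGAAACA, the element bound by the mating transcription factor Ste12.
RCN1: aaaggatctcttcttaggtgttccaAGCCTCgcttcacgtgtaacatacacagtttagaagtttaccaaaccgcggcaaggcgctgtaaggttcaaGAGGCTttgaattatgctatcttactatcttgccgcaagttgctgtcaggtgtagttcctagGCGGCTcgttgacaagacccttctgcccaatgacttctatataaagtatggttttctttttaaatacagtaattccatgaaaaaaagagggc
RCN2: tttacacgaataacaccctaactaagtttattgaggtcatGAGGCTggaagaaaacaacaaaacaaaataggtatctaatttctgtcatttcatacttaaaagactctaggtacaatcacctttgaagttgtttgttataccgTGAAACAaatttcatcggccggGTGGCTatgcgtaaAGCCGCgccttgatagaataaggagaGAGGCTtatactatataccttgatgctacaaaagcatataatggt
CMK2: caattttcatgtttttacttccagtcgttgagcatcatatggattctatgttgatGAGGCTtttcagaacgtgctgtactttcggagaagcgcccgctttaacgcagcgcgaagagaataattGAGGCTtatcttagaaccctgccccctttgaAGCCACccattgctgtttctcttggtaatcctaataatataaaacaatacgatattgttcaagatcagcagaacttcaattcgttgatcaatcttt
PMC1: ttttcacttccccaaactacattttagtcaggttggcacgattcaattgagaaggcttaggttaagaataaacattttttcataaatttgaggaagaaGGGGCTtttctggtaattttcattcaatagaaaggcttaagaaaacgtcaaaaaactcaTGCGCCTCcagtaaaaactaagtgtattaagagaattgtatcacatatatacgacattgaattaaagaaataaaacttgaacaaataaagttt
CMP2: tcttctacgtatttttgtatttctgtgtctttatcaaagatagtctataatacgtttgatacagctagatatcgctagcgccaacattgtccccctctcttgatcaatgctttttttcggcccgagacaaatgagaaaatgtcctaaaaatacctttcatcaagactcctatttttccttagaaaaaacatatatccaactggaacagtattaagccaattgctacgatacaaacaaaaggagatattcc

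Matches to GNGGCT numbered 4 before RCN2, 3 before RCN1, 3 before CMK2 and 1 each before PMC1 and CNB1. RCN2 held them 260, 135, 121 and 95 bases before the start codon, CMK2 245, 177 and 146 bases before it, and RCN1 275, 204 and 142 bases before it, counted from the most upstream base of the match. No match to GNGGCT lay in the window of MID1, CCH1, CNA1, CMP2 or CRZ1. The shorter core GNGGC was not counted, and the windows of CCH1 and CNA1 do hold it. Of the windows of the same length before all 6020 protein-coding genes, 18.5% held at least 1 match to GNGGCT, 2.19% at least 2 and 0.216% at least 3. The longer form GNGGCGCA was found before PMC1 alone of the 10 genes, at 143 bases, and before 0.914% of all genes; the form GNGGCTCA, which contains GNGGCT, was before none of the 10 and 0.764% of all. TGAAACA was found before RCN2, 157 bases from the start codon, and before CNA1, 225 bases from it, and before 6.11% of all genes. The letters and the window were chosen with the expression values known, and a match is a description of the sequence, not evidence of binding.

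The order of the levels changed with α-factor. FPKM is per length, so levels can be set side by side between genes, within limits. The length used for CNB1 and the source of a further scaling of the values are unknown. The order of CNB1 beside genes of a near level is therefore uncertain. Without pheromone CNB1 was highest of the 10 genes, with mean levels of 837 FPKM in MATa and 788 in MATα-playing-a cells, followed by CMK2, RCN2 and CMP2 in MATa cells, whose values overlapped from one to the next. In the unstimulated MATα-playing-a libraries CMP2, RCN2 and MID1 likewise overlapped in turn. With α-factor RCN2 was highest in both strains (1526 and 1523 FPKM), above 91.7% of the 7126 genes in MATa cells, where it had been above 63.5% without pheromone. RCN2 and CMK2 overlapped in stimulated MATa libraries and CMK2 and CNB1 in those of MATα-playing-a cells. The mean levels of RCN1 and PMC1 lay below those of MID1, CRZ1 and CNA1 without pheromone and above them with it. RCN1 and CNA1 overlapped in unstimulated MATα-playing-a libraries, where replicate 1 held 151 FPKM of RCN1 and 131 of CNA1. RCN1 and PMC1 overlapped in unstimulated MATa libraries and, with pheromone, in both strains.

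**Figure D4:**
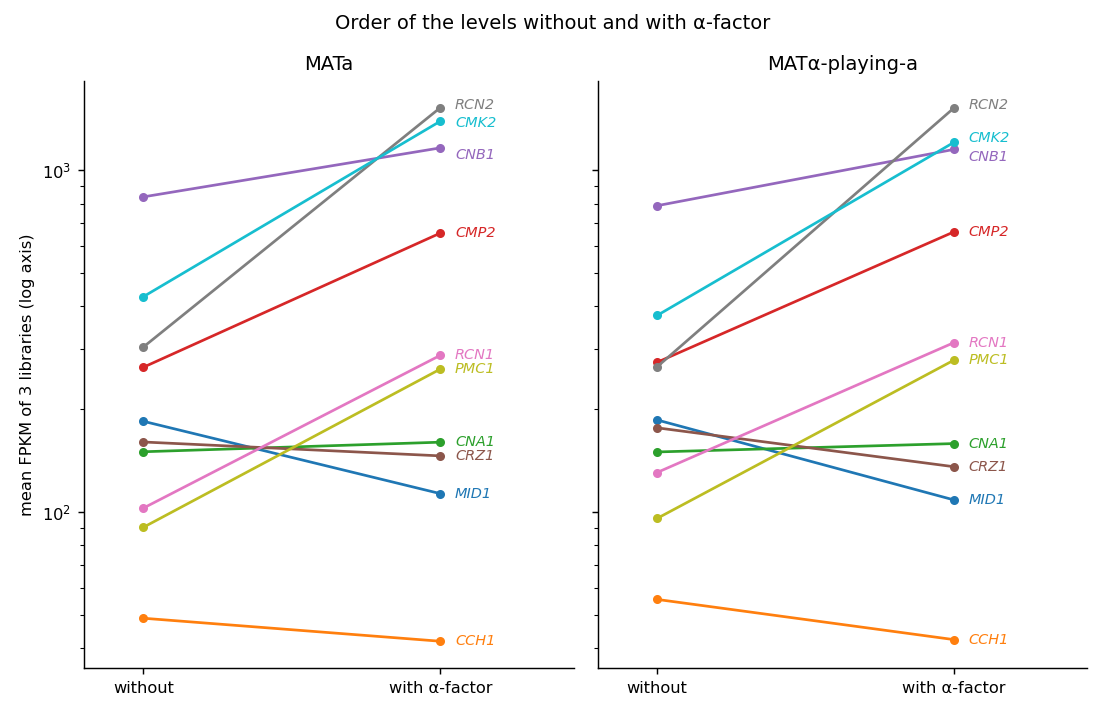
Mean FPKM of 3 libraries (y axis, log scale) of each gene without and with α-factor (x axis) in MATa (left) and MATα-playing-a cells (right). RCN2 reaches 1526 and 1523 FPKM and passes CNB1 in both strains, and CCH1 is lowest throughout.

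The strains were then compared. None of the 10 genes was called different between MATα-playing-a and MATa cells without α-factor, beside 0.953% of all genes (63 of 6608 called by limma; 825 had an unadjusted p below 0.05). With α-factor again none was called, beside 2.21% of all genes (limma; 744 with an unadjusted p below 0.05). None was called in the difference of the responses either, beside 0.484% (771 with an unadjusted p below 0.05). The largest strain difference without pheromone was that of RCN1, at 0.34 ± 0.15 (SE; limma adjusted p = 0.399), with values of 87.6 to 114 FPKM in MATa and 107 to 151 in MATα-playing-a libraries. With pheromone it was that of CMK2, at -0.205 (95% interval -0.93 to 0.52; limma adjusted p = 0.879), and its values of 1129 to 1276 FPKM in MATα-playing-a and 1319 to 1507 in MATa libraries did not overlap. CRZ1 did not overlap without pheromone, at 155 to 164 FPKM in MATa and 170 to 181 in MATα-playing-a libraries (log2 difference 0.14, 95% interval -0.05 to 0.32; limma adjusted p = 0.511). For MID1, CNA1, CMP2 and CNB1 the 95% intervals of the strain difference reached no lower than -0.24 and no higher than 0.22 under either condition. The intervals were wider for RCN2 (-0.72 to 0.29 without α-factor) and CMK2 (-0.85 to 0.60). Among all genes, 27 were called higher and 5 lower in the difference of the responses, and 11 and 4 with the culture as a replicate block.

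Genes that act around these 10 were taken from 4 lists written from general knowledge, with earlier results of these data known. The counts of these lists are therefore descriptions, not independent tests. Of 10 calcium channels and transporters, 6 were called higher and 2 lower in MATa cells, and 5 higher and 3 lower in MATα-playing-a cells, with median log2 changes of 0.22 and 0.25. Of all tested genes, 28.5% were called higher and 38.1% lower in MATa cells, and 29.8% and 39.1% in MATα-playing-a cells. FIG1, a membrane protein of low-affinity calcium influx in mating cells, was at 12.03 to 22.7 FPKM in unstimulated and 10174 to 11572 in stimulated MATa libraries. PRM6, a potassium transporter of the pheromone response, was listed at 4.35, 0 and 6.43 FPKM in unstimulated and at 1842, 1957 and 1933 in stimulated MATa libraries. In MATα-playing-a cells PRM6 was at 0, 6.40 and 4.53 FPKM without and 1869, 1994 and 1863 with α-factor. These were the channel and transporter genes that rose by 2-fold or more in both strains.

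VCX1, the vacuolar calcium exchanger, fell from 801 ± 71.1 to 519 ± 13.5 FPKM in MATa cells (SD, n = 3; limma adjusted p = 9.3e-06) and from 779 ± 37.2 to 498 ± 6.15 in MATα-playing-a cells (adjusted p = 6.8e-06). GDT1, a Golgi calcium and manganese transporter, fell from 1276 ± 100.4 to 670 ± 15.3 FPKM (adjusted p = 2.9e-06) and from 1152 ± 122.9 to 689 ± 52.6 (adjusted p = 1.7e-05). PMC1 and VCX1, which both load the vacuole with calcium, thus moved in opposite directions, and PMC1 over VCX1 was 0.0988 to 0.124 in unstimulated and 0.488 to 0.524 in stimulated MATa libraries. In MATα-playing-a libraries this ratio was 0.111 to 0.132 without and 0.521 to 0.582 with α-factor.

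The list of calmodulin and related kinases held 3 genes. CMD1, calmodulin, rose from 2261 ± 69.5 to 2764 ± 136 FPKM in MATa (log2 change 0.29, limma adjusted p = 0.00336) and from 2089 ± 187 to 3139 ± 126 in MATα-playing-a cells (0.59, adjusted p = 1.7e-05). CMK1, the paralog of CMK2, rose 1.52-fold and 1.54-fold. CMK2 over CMK1 was 2.90, 3.36 and 1.19 in unstimulated and 5.41, 5.31 and 5.08 in stimulated MATa libraries, which do not overlap. RCK2, a kinase gene of the same family, rose in MATa cells (1.38-fold, adjusted p = 1.7e-04) and had a log2 change of 0.12 in MATα-playing-a cells (adjusted p = 0.174); the difference of the responses was -0.35 (adjusted p = 0.255). Of these 3 genes, 3 rose in MATa and 2 in MATα-playing-a cells, beside 28.5% and 29.8% of all genes.

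Of 13 genes for partners and substrates of calcineurin and regulators of Crz1, 5 were called higher and 3 lower in MATa cells, against 6 and 4 in MATα-playing-a cells (median log2 changes 0.07 and 0.09), beside 28.5% higher and 38.1% lower of all genes in MATa and 29.8% and 39.1% in MATα-playing-a cells. FRT2, a membrane protein whose paralog FRT1 codes for a calcineurin substrate, rose from 27.2 ± 7.35 to 64.6 ± 2.62 FPKM in MATa cells, and 2.20-fold in MATα-playing-a cells. FRT1 itself fell in both strains, by 0.58 and 0.69 on the log2 scale (limma adjusted p = 1.5e-04 and 3.7e-05). ROD1, an arrestin-related protein on which calcineurin acts and which promotes uptake of the α-factor receptor, rose by log2 changes of 0.74 and 0.58 (limma adjusted p = 6.0e-06 and 3.6e-05). RIM11 and MCK1, kinases of the GSK-3 family, moved in opposite directions. RIM11 rose 1.86-fold and 1.93-fold, and MCK1 fell by 0.73 and 0.84 on the log2 scale.

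Among 11 other genes known as targets of Crz1, 10 rose and none fell in each strain, with median log2 changes of 2.02 and 1.94. The shares over all genes were 28.5% higher and 38.1% lower in MATa, and 29.8% and 39.1% in MATα-playing-a cells. PMR1 stands in this list and in that of the transporters, and several others are cell wall genes that other pathways also control. GSC2, a glucan synthase, was at 55.3, 68.1 and 60.4 FPKM in unstimulated and 840, 732 and 875 in stimulated MATa libraries. PHO89, a sodium and phosphate transporter, rose from 132 ± 28.2 to 1318 ± 76.9 FPKM. GYP7, which regulates a GTPase of the vacuole, rose 5.10-fold and 5.34-fold. SCW10, a cell wall protein, rose 4.69-fold and 4.94-fold. The gene that did not pass was CRH1 in MATa (log2 change 0.14, adjusted p = 0.259) and PMR1 in MATα-playing-a cells (0.22, adjusted p = 0.0653). Of the 11 windows before these genes 3 held GNGGCT, and 1 held GNGGCGCA, beside 18.5% and 0.914% of the windows before all protein-coding genes. TGAAACA was in 2 of the 11, beside 6.11% of all. Of the 10 windows of the channel and transporter list, 3 held GNGGCT and 2 held TGAAACA.

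**Figure D5:**
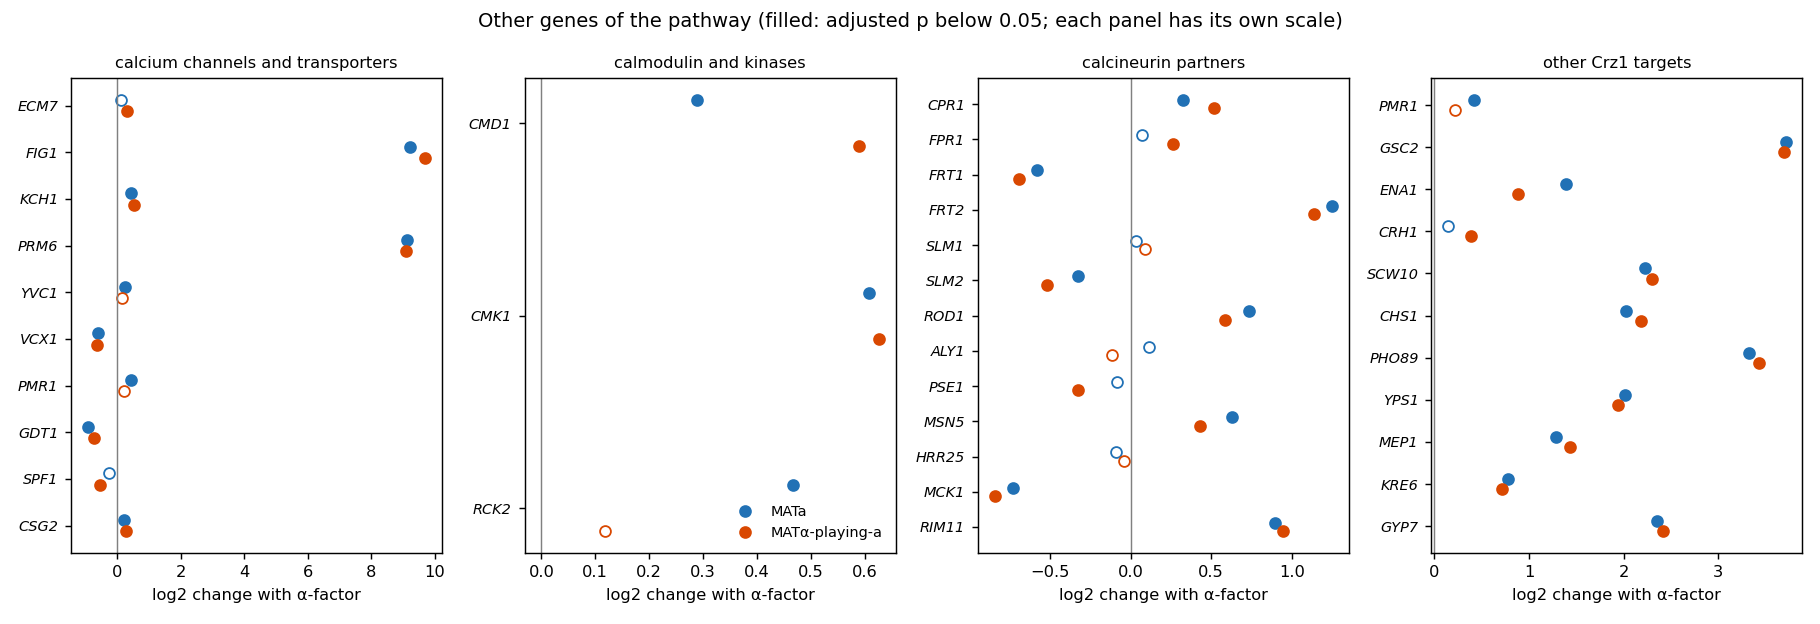
Log2 change with α-factor (x axis, log2(FPKM + 1) scale, own range per panel) of the other genes of the pathway, in MATa (blue, upper) and MATα-playing-a cells (orange, lower); filled points passed an adjusted p of 0.05 and open points did not. In the panel of other Crz1 targets every point lies above 0, with 10 of 11 filled in each strain.

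RCN2, with the largest change of the 10 genes, was also compared with all 6493 other tested genes that reached a group mean of 10 FPKM. OPI10 (Pearson r = 0.994 of log2(FPKM + 1) over 12 libraries), YOR385W (0.993), PEP12 (0.993), YLR345W (0.993) and TMA10 (0.992) were most like it. These values follow mainly the split between stimulated and unstimulated libraries, which all of them share. PEP12, for example, stood at 255 and 1019 FPKM in MATa cells and 240 and 1137 FPKM in MATα-playing-a cells without and with α-factor. Among the 10 genes, CMP2, PMC1 and CMK2 had r = 0.97 with RCN2, CNB1 0.95 and RCN1 0.93, MID1 -0.95, and CNA1 0.39.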

How the data were processed

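RNA of 12 yeast samples was sequenced, in 4 groups of 3 biological replicates. Cufflinks 0.9.3, TopHat 1.1.4 and CASAVA 1.8.2 are listed in the submitters' processing notes. The genome build is not given in the sources used here. The authors deposited FPKM (a level scaled by gene length and by library size) for 7126 genes per library, with confidence bounds, which were not used: in 81.8% of values they lay where the square root of the FPKM alone would put them (within 0.01 of a variance ratio of 1). FPKM times length summed to 5.02 to 6.22 times what the unit allows, so values carry a further scaling of unknown source. Low values showed no step of whole reads, so the depth is unknown. No counts were used. Of the gene IDs 6048 matched R64 locus tags, 6036 of them with the same coordinates.

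Values entered as log2(FPKM + 1) for the 6608 genes with a mean of at least 1 FPKM. They were fitted with 1 mean per group in limma 3.58.1 under R 4.3.3 (eBayes with trend), with 5 contrasts and Benjamini-Hochberg adjustment over all tested genes at 0.05. Fold changes are on the log2(FPKM + 1) scale and understate low genes. The procedure was run on simulated data with 200 genes shifted in the stimulated MATa libraries and noise independent between libraries. Far more genes were called in the data, so that run does not show how the procedure behaves here. Ratios and sequence matches were computed in Python 3.11.15. Each culture was split, and the stimulated and unstimulated samples of a strain with the same replicate number were taken as the same culture. Correlations of their deviations from group means ran from -0.21 to 0.20, and the culture was used as a block in an alternative. The 10 genes and the lists were chosen with earlier results of these data known. All 10 were named, with up to 4 genes per other list (all 3 of the kinase list) by size of change and 5 genes by likeness to RCN2; FRT1, CRH1, PMR1 and ENA1 were named after their values were seen.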

Additional observations from a re-analysis of the deposited data

How the results depend on the processing

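The alternatives were pseudocounts of 0.1 and 10, no filter or a mean of at least 10 FPKM, rescaling by median ratios, quantile normalisation, replicate blocks, the compared libraries alone, no trend, and each library left out. In each of them 6 of the 10 genes rose with α-factor in both strains and 3 fell in MATα-playing-a cells. In MATa cells 1 fell, but 2 with quantile normalisation, where CCH1 passed (-0.31). Neither replicate block, by number or by culture, changed a call of the 10 genes. Over all genes, the culture block left 11 higher in the difference of responses, against 27. With the compared libraries alone, 14 genes were higher and 19 lower in the strain difference without α-factor, against 23 and 40. With quantile normalisation, 66 genes were lower and 90 higher in the strain difference with α-factor, against 43 and 103, and 8 were lower in the difference of responses, against 5. RCK2 passed in MATα-playing-a cells after rescaling (0.215). The cause was not tested.

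Some small differences between strains changed sign, none of them past the threshold either way. With quantile normalisation these were MID1 (-0.014) and ENA1 (-0.022) without α-factor, CCH1 (-0.050), CMP2 (-0.024) and RCN2 (-0.046) with it, and CNA1 (0.013), CNB1 (-0.013) and PMC1 (0.022) in the difference of responses. Rescaling turned CNA1 to 0.001 there.

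Leaving out 1 library at a time, the strain difference without α-factor ran from -0.009 to 0.029 for MID1, -0.083 to 0.086 for CNA1, -0.485 to 0.006 for RCN2, -0.569 to 0.136 for CMK2 and -0.029 to 0.072 for ENA1. With α-factor it ran from -0.146 to 0.028 for MID1, -0.038 to 0.068 for CCH1, -0.048 to 0.006 for CNA1, -0.060 to 0.085 for CMP2, -0.073 to 0.012 for CNB1 and -0.078 to 0.065 for RCN2. The difference of responses ran from -0.160 to 0.015 for MID1, -0.099 to 0.070 for CNA1, -0.110 to 0.035 for CMP2, -0.005 to 0.486 for RCN2, -0.131 to 0.064 for PMC1 and -0.341 to 0.364 for CMK2. The response of CNA1 in MATα-playing-a cells ran from -0.007 to 0.162, and that of CMK2 from 1.38, without unstimulated MATa replicate 3, to 2.08 in MATa cells.

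Over all genes, 59 to 108 were then higher and 26 to 45 lower in the strain difference with α-factor. It had 59 higher and 26 lower without stimulated MATa replicate 1, 66 higher without stimulated MATα-playing-a replicate 3, and 28 lower without stimulated MATa replicate 3 or stimulated MATα-playing-a replicate 1 or 2. In the difference of responses 17 to 42 were higher and 4 to 8 lower, with 42 higher without stimulated MATa replicate 2, 17 without unstimulated MATα-playing-a replicate 1 or 2, and 8 lower without replicate 1 of that group. The depth is unknown, so that counting error could not be set beside these values.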

Other observations

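ENA1, a sodium pump gene and known Crz1 target, was the only gene of the 4 pathway lists called between the strains, and was named after its values were seen. With α-factor it was at 351, 335 and 388 FPKM in MATa libraries and at 249, 236 and 281 in MATα-playing-a libraries, which did not overlap. The difference was -0.49 ± 0.09 (log2, limma adjusted p = 0.0129), and over the alternatives the adjusted p ran from 0.0106 to 0.0897. It was lost with the compared libraries alone (adjusted p = 0.0897) and without stimulated MATa replicate 1 (0.0501) or 3 (0.0622) or stimulated MATα-playing-a replicate 1 (0.0654) or 2 (0.0624). The difference of the responses was -0.50 (adjusted p = 0.151). ENA1 has near-identical neighbouring copies in the genome, among which the authors' assignment of reads could be split, so that its level is uncertain.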
